A study of Mus musculus with 24 samples.

Results

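Ncor1, Hdac3, Tbl1x, Tbl1xr1, Gps2, Rcor1, Bcl6 and Jmjd3 code for NCoR corepressors and histone modifiers, and their RNA was measured in 3 mouse cell types with and without a TLR4 agonist. A probe counted for a gene when the gene name in the scanner output equalled one of these names. The rule found 17 probes of 34850 with a gene name, for 8 genes of 21597. All 8 genes were among the 17347 that passed the filter on dim signal, and the probe used for each was well above background in all 24 array channels.

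NCoR, the product of Ncor1, is a scaffold that transcription factors recruit to silent genes, and it carries the deacetylase HDAC3. TBL1, TBLR1 (from Tbl1xr1) and GPS2 are core subunits of that complex, and TBL1 and TBLR1 also serve its exchange for coactivators when a gene is switched on. CoREST, from Rcor1, is the scaffold of a separate complex with the demethylase LSD1 and other deacetylases. BCL6 is a DNA-binding repressor of B cells and macrophages that recruits NCoR, and JMJD3, now named KDM6B, removes methyl groups from histone H3 at K27.

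All cells came from C57BL/6 mice. Thioglycollate-elicited peritoneal macrophages (EPM) and resting splenic B cells, prepared by depletion of cells with CD43 or CD11b, were left untreated or given KLA (Kdo2 lipid A, which activates TLR4) for 1 h, or solvent (DMSO) or KLA for 12 h. Bone marrow-derived macrophages (BMDM) had the same 4 conditions, except that their early control received DMSO for 1 h. The early control of EPM and B cells thus lacked the solvent. Each of the 12 conditions was hybridized to 1 2-colour array with its 2 biological replicates, 1 in Cy5 and 1 in Cy3, and the 4 arrays of a cell type shared 1 slide.

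Values are log2 intensities after normalization, and a difference of 1 is a doubling. A gene was called changed at an adjusted p under 0.05 over all genes tested. The spread behind each test is that between the 2 channels of an array, which leaves out differences between arrays, and the number of arrays limits the precision. An effect of the slide cannot be told apart from one of the cell type. As an alternative, the 12 array means were taken as the samples, with both controls of a cell type as 1 control group and 3 residual degrees of freedom.

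Probes well above background made up a similar share in the 3 cell types. The median over 8 channels was 61.3% in EPM, 60.1% in BMDM and 58.95% in B cells. The labelled cell types carried their markers. In the early EPM and BMDM controls both channels read all 8 markers of macrophages well above background, with summed intensities of 310132 and 343203 and Lyzs as the brightest. In untreated B cells 5 of those 8 were, with a sum of 1097, and Itgam, Mrc1 and Msr1 were above background in neither channel. All 8 B cell markers were well above background in untreated B cells, with a sum of 278440 led by Cd79b. In the early EPM and BMDM controls 6 of 8 passed, and Pax5 and Cr2 were above background in neither channel. The sums there were 66321 and 27246, and most of each was Blnk, at 15.97 and 14.50. The median over the 8 was 6.39 in EPM and 6.82 in BMDM, against 13.51 in untreated B cells.

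Markers of other cells differed between the cell types too. All 6 neutrophil markers were well above background in the early BMDM control, with a sum of 14614 led by S100a9, against 4 of 6 and a sum of 1107 in untreated EPM. All 4 mesothelial and fibroblast markers were well above background in untreated EPM, with a sum of 22371 led by Col1a1, against 3 of 4 and 1526 in the early BMDM control. In untreated B cells 3 of 4 erythroid markers passed, with a sum of 10764 led by Hbb-b1, and 4 of 6 T cell markers, with a sum of 1741 led by Lck. Of the 4 dendritic cell markers 3 passed in untreated B cells and 3 in untreated EPM, with sums of 22523 and 9359. Each sum came mostly from 1 gene, Ccr7 at 14.44 in B cells and Itgax at 13.14 in EPM. The medians over the 4 were 6.42 and 6.92. Whether other cells were present was not tested, nor was their part in the differences between cell types below.

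A conflict in the labels of the B cell arrays bears on every B cell result with KLA at 1 h or with DMSO at 12 h. In the authors' normalized table, 20 of 24 columns matched the scanner values of their own condition most closely. The other 4 were the columns of B cells with KLA for 1 h and with DMSO for 12 h, which matched each other's scanner values (r of at least 0.965 across probes, values centred within a cell type) and not their own (r of at most -0.69). By the scanner labels, summed erythroid markers in B cells were 10764 untreated, 11530 with KLA for 1 h, 5103 with DMSO for 12 h and 3996 with KLA for 12 h, led by Hbb-b1 with 3 of 4 well above background in each. Summed macrophage markers in the same order were 1097, 1098, 2866 and 2501, and the level of Tnf was 8.34, 8.54, 7.29 and 7.71. By these labels the values with KLA for 1 h lay near those of untreated cells, and those of the 12 h conditions near each other. With the labels exchanged, the condition with KLA for 1 h would hold the values given for DMSO for 12 h: erythroid markers would go from 10764 to 5103 within 1 h, Tnf from 8.34 to 7.29 and Nfkbia from 14.70 to 14.30. The origin of the conflict was not tested. The scanner labels were kept. Where a B cell test of the 8 genes changed its call with these 2 conditions exchanged, or turned with a call under either labelling, the exchanged value is also given, and single probes are given as labelled only.

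Without KLA, B cells held more RNA of most of these genes than either macrophage. Against EPM at the early control, 7 of 8 genes were higher in B cells and 0 lower, where 77.2% of all genes tested were called, 38.5% higher and 38.6% lower. Against BMDM, 7 were higher and 0 lower, where 76.6% of all genes were called, 37.5% higher and 39.1% lower. The median difference over the 8 genes was 1.14 against EPM and 0.55 against BMDM, beside -0.01 and -0.03 over all genes tested. Fewer cells of a type and less RNA per cell cannot be told apart in these bulk samples.

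At the 12 h controls, all 8 genes were higher in B cells than in EPM, where 77% of all genes were called, 38.6% higher and 38.4% lower. Against BMDM, 7 were higher and 1, Tbl1x, was lower, where 76.4% of all genes were called, 37.3% higher and 39% lower. With the labels exchanged, 7 were higher and 0 lower than in EPM, and 7 higher and 0 lower than in BMDM, where 76.5% and 76.2% of all genes were called. With loess within arrays only, the counts called were 4 for B cells against BMDM at the early control and 5 for B cells against EPM and against BMDM at 12 h, where 81%, 77% and 77.9% of all genes were called. Among these calls Tbl1x was lower in B cells than in BMDM at 12 h (-0.78, adjusted p = 7.56e-09), and the others were higher in B cells. That scaling moved the median of all genes by -0.19 for the early comparison with BMDM and by -0.16 for the one at 12 h. Differences still called at the early control were smaller with it, among them those from BMDM of Ncor1 (0.86), Gps2 (0.30) and Rcor1 (0.28) and those from EPM of Rcor1 (0.42) and Hdac3 (0.20).

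Ncor1 was a B cell-high gene. Its log2 intensity was 12.70 and 12.71 in the 2 channels of untreated B cells, 11.01 and 11.12 in untreated EPM, and 11.23 and 11.49 in the early BMDM control. The channels of the 3 cell types did not overlap, with B cells highest and EPM lowest. The level was 3.13-fold higher in B cells than in EPM (log2 difference 1.64, SE 0.09, adjusted p = 7.61e-12). It was 2.54-fold higher in B cells than in BMDM (adjusted p = 1.71e-10). EPM were lower than BMDM by -0.30 (adjusted p = 0.0113), a call that ended without the Cy3 channel of the early BMDM control (-0.17, adjusted p = 0.198) or the Cy5 channel of untreated EPM (-0.25, adjusted p = 0.0917). Ncor1 spanned 2.30 between its highest and lowest condition means, and all 4 B cell conditions ranked above the 8 macrophage conditions. Within that order, 5 of 11 neighbouring conditions had channels that did not overlap.

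Ncor1 had 7 probes, of which 5 were well above background in both channels of every control. All 5 were higher in B cells than in EPM at both control times, and at the early control their differences ran from 0.41 to 1.64. Against BMDM, 4 of the 5 were higher at each time, and the other, A_52_P244895, differed by -0.16 at the early control (adjusted p = 0.244). Between EPM and BMDM the probes divided. At the early control 3 were lower in EPM, and at 12 h 4 were lower and 1, A_52_P487598, was higher by 0.38 (adjusted p = 0.000187). The probe used for the gene, A_52_P561934, lies at chr11:62134177-62135571 (mm8). A_52_P487598 lies at chr11:62235836-62235895, at the other end of the positions listed for these probes. The positions of A_51_P457744, A_52_P43661 and A_52_P357298 are listed in the opposite orientation to those of the other 4. The remaining 2 probes, A_52_P43661 and A_52_P357298, were well above background in 6 of 24 channels, all of B cells, so that their differences from the macrophages are not read as sizes.

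**Figure D1:**
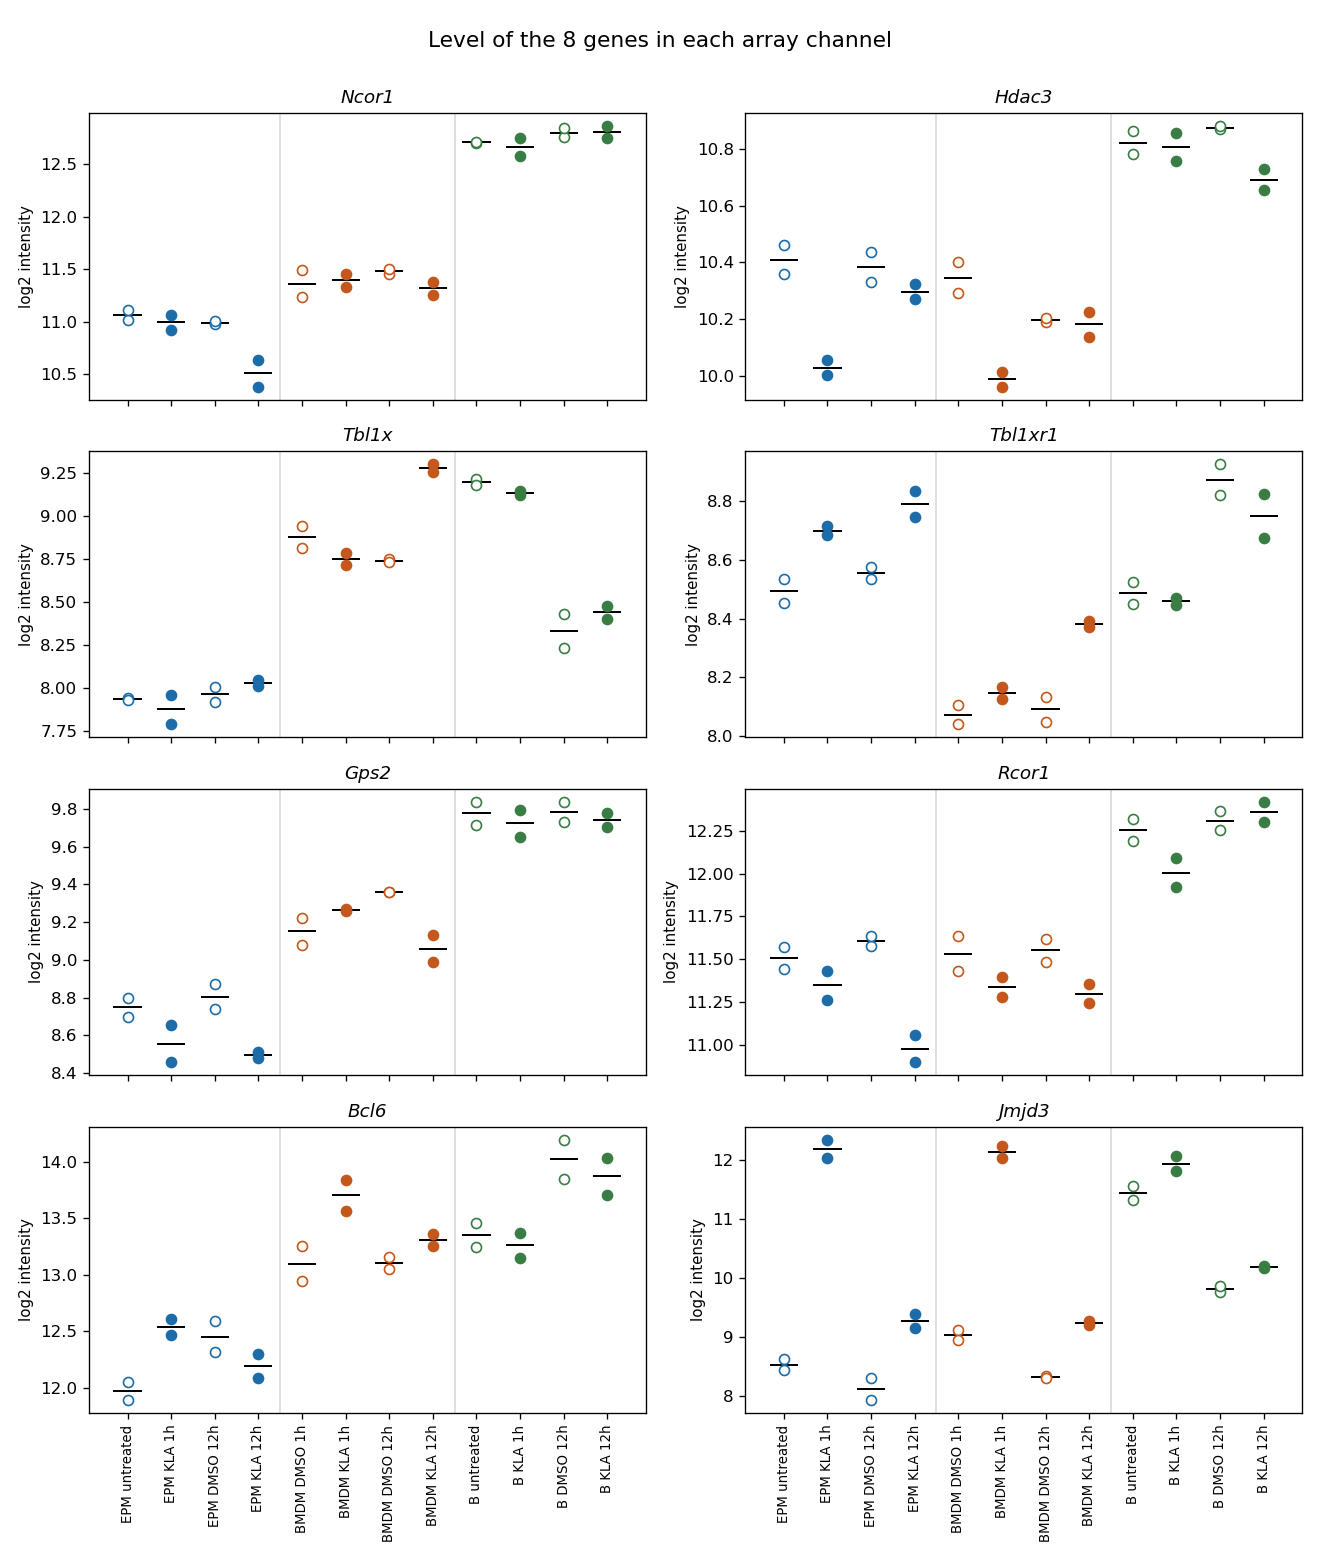
Log2 intensity (y axis) of the 8 genes in each of 12 conditions (x axis). Each point is 1 array channel, filled for KLA and open for controls, and each bar is the mean of the 2 channels. EPM are blue, BMDM orange and B cells green, and each panel has its own y range. Jmjd3 lies at 12.19 in EPM and 12.14 in BMDM with KLA for 1 h, above 8.53 and 9.04 in their controls.

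Gps2, Rcor1 and Hdac3 were also higher in B cells than in either macrophage. Gps2 read 9.84 and 9.72 in untreated B cells, 8.70 and 8.80 in untreated EPM, and 9.08 and 9.22 in the early BMDM control. It was 2.04-fold higher in B cells than in EPM (adjusted p = 7.82e-10) and 1.54-fold higher than in BMDM (adjusted p = 8.96e-07), and it was lower in EPM than in BMDM by -0.40 (adjusted p = 0.000282). Both Gps2 probes gave each of these calls at both times. The 12 h difference from BMDM was 0.03 with loess within arrays only (adjusted p = 0.751). Rcor1 read 12.19 and 12.32 in untreated B cells, 11.45 and 11.57 in untreated EPM, and 11.43 and 11.63 in the early BMDM control, where EPM and BMDM overlapped. It was 1.68-fold higher in B cells than in EPM (adjusted p = 5.44e-07) and 1.65-fold higher than in BMDM (adjusted p = 8.52e-07), and its levels in EPM and BMDM differed by -0.02 (adjusted p = 0.856).

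The Rcor1 values rest on 1 of its 3 probes, A_51_P494775 at chr12:111561009-111561068. A_52_P663789 gave -0.01 for B cells against EPM at the early control (adjusted p = 0.923). A_52_P535052 gave 0.27 there (adjusted p = 0.00593), and it was lower in B cells than in BMDM by -0.22 (adjusted p = 0.0198). Higher Rcor1 in B cells thus held for 2 of 3 probes against EPM and for 1 of 3 against BMDM at the early control. At 12 h it held for 2 of 3 against each, and with loess within arrays only the 12 h difference from BMDM was 0.20 (adjusted p = 0.0572). With the mean of the 3 probes, Rcor1 was lower in EPM than in BMDM at the early control (-0.15, adjusted p = 0.0237).

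Hdac3 codes for the catalytic subunit of the NCoR complex. Its single probe lies at chr18:38062945-38062967, and its 24 channels ran from 9.96 to 10.88. It was 1.33-fold higher in B cells than in EPM (adjusted p = 6.23e-06) and 1.39-fold higher than in BMDM (adjusted p = 1.08e-06), and at 12 h the differences were 1.41-fold (adjusted p = 6.71e-07) and 1.60-fold (adjusted p = 8.68e-09). The difference from BMDM was 0.11 with loess within arrays only (adjusted p = 0.111), and at 12 h that from EPM was 0.14 (adjusted p = 0.0503) and that from BMDM 0.16 (adjusted p = 0.0275). EPM and BMDM differed by 0.06 at the early control (adjusted p = 0.406), and at 12 h Hdac3 was higher in EPM by 0.19 (adjusted p = 0.0157). The 12 h call ended without the Cy5 channel of EPM with DMSO (0.13, adjusted p = 0.153) or of BMDM with DMSO (0.18, adjusted p = 0.0681), and with loess within arrays only (0.02, adjusted p = 0.81).

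The paralogs Tbl1x and Tbl1xr1 were ordered in opposite ways in the macrophages. Tbl1x read 7.95 and 7.93 in untreated EPM and 8.81 and 8.94 in the early BMDM control, so that EPM were lower by -0.94 (SE 0.07, adjusted p = 1.37e-09). Tbl1xr1 read 8.54 and 8.45 in untreated EPM and 8.04 and 8.11 in the early BMDM control, so that EPM were higher by 0.42 (SE 0.06, adjusted p = 9.59e-06). The channels of EPM and BMDM did not overlap for either gene. At the 12 h controls the differences were -0.78 for Tbl1x (adjusted p = 1.85e-08) and 0.47 for Tbl1xr1 (adjusted p = 2.75e-06). Tested on array means, the differences between EPM and BMDM were -0.86 for Tbl1x (adjusted p = 0.104) and 0.44 for Tbl1xr1 (adjusted p = 0.102), and 2 of the 8 genes, Ncor1 (adjusted p = 0.0487) and Gps2 (adjusted p = 0.0354), were called, where 19.6% of all genes were.

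In B cells the level of Tbl1x depended on which control was read. At the early control it was 2.40-fold higher than in EPM (log2 difference 1.26, adjusted p = 4.98e-12). On array means, with both controls pooled, the log2 difference was 0.81 (adjusted p = 0.062). Tbl1x read 9.22 and 9.18 in untreated B cells and 8.23 and 8.43 in the cells labelled DMSO for 12 h. Tbl1x was thus higher in B cells than in BMDM at the early control by 0.32 (adjusted p = 0.000404) and lower by -0.41 at 12 h (adjusted p = 3.37e-05). With the conditions exchanged the 12 h difference turned to 0.39 (adjusted p = 5.45e-05), and the early one was -0.00 with loess within arrays only (adjusted p = 0.956). On array means, which average the early and the 12 h difference, it was -0.04 (adjusted p = 0.918). Tbl1xr1 differed by -0.01 between untreated B cells and EPM (adjusted p = 0.918) and was higher than in BMDM by 0.41 (adjusted p = 5.83e-06), a call that ended with loess within arrays only (0.09, adjusted p = 0.208). At 12 h it was higher in B cells than in EPM by 0.32 (adjusted p = 0.000121), which turned to -0.10 with the conditions exchanged (adjusted p = 0.158). In the authors' table it turned to -0.26 with a call (adjusted p = 0.00281), and with loess within arrays only it was 0.05 (adjusted p = 0.517). With that scaling the early difference from EPM was called, at -0.21 (adjusted p = 0.00383). The 12 h difference of Tbl1x from EPM was 0.37 (adjusted p = 0.000108), and 1.17 with the conditions exchanged (adjusted p = 1.62e-11). It was 0.13 with loess within arrays only and was then not called (adjusted p = 0.0975).

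Bcl6 was high in B cells and BMDM and lower in EPM. Its probe at chr16:23880423-23880482 read 13.46 and 13.25 in untreated B cells, 13.25 and 12.94 in the early BMDM control, and 12.05 and 11.89 in untreated EPM. The channels of B cells and BMDM overlapped, and both lay above those of EPM. B cells exceeded EPM 2.61-fold (adjusted p = 6.64e-08), and EPM were lower than BMDM by -1.13 (SE 0.15, adjusted p = 2.45e-06). On array means the latter was -0.89 (adjusted p = 0.082). B cells and early BMDM differed by 0.26 (adjusted p = 0.118), which passed with the dye as a replicate block (adjusted p = 0.000584) and without the Cy5 channel of the early BMDM control (0.41, adjusted p = 0.0394), and which turned to -0.25 with loess within arrays only (adjusted p = 0.116). At 12 h B cells were higher by 0.92 (adjusted p = 1.48e-05). With the conditions exchanged that 12 h difference was 0.16 (adjusted p = 0.345), and with loess within arrays only 0.27 (adjusted p = 0.097).

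Jmjd3 had the largest differences of the 8 genes between B cells and either macrophage at the early control. Its probe at chr11:69216247-69216391 read 11.56 and 11.32 in untreated B cells, 8.63 and 8.44 in untreated EPM, and 9.13 and 8.95 in the early BMDM control. B cells lay above both macrophages in every channel, 7.52-fold above EPM (log2 difference 2.91, SE 0.13, adjusted p = 2.03e-13) and 5.29-fold above BMDM (adjusted p = 4.15e-12). EPM were lower than BMDM by -0.51 at the early control (adjusted p = 0.00285). On array means, with both controls pooled, the difference between EPM and BMDM was -0.36 (adjusted p = 0.736). At 12 h that difference was -0.21 (adjusted p = 0.196), and it passed with the dye as a replicate block (adjusted p = 0.0356), without the Cy5 channel of EPM with DMSO (-0.39, adjusted p = 0.0329), with the processed signal of the scanner software (-0.34, adjusted p = 0.0128) and with loess within arrays only (-0.36, adjusted p = 0.025). Without the Cy3 channel of EPM with DMSO it was -0.02 (adjusted p = 0.925). The difference between B cells and EPM was 1.69 at 12 h (adjusted p = 7.91e-10), and 3.82 with the conditions exchanged.

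Between EPM and BMDM, 6 of 8 genes were called at the early control, 1 higher and 5 lower in EPM, where 57.8% of all genes tested were called, 28.5% higher and 29.3% lower. At 12 h 6 were called, 2 higher and 4 lower, where 56.9% of all genes were called, 27.2% higher and 29.8% lower. The median over the 8 genes was -0.35 at both times, beside -0.01 and -0.02 over all genes.

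Levels also differed between the early and the 12 h controls. In EPM and BMDM this was not tested, and in B cells the test at 1 h with exchanged labels, given below, compares the same 2 arrays. In EPM and B cells the early control lacked the solvent, and in all 3 cell types the controls were on separate arrays, so that time, solvent and array cannot be told apart. In B cells as labelled, Jmjd3 was lower at 12 h than in untreated cells by -1.63 and Tbl1x by -0.87, while Bcl6 was higher by 0.67 and Tbl1xr1 by 0.39. The channels of the 2 controls did not overlap for these 4 genes. With the labels exchanged the differences were 0.50 for Jmjd3, -0.07 for Tbl1x, -0.09 for Bcl6 and -0.03 for Tbl1xr1. Jmjd3 was also lower in the 12 h controls of EPM (-0.41) and BMDM (-0.71), and Bcl6 was higher in that of EPM (0.48). The largest difference between BMDM controls among the other genes was 0.21, for Gps2. Summed T cell markers in B cells went from 1741 to 3636 (4 of 6 well above background in both conditions, median log2 intensity 6.86 and 6.89, Lck leading with 10.12 and 11.43, with Cd3g and Cd8a in neither channel of untreated cells and Cd8a in neither at 12 h), and erythroid markers from 10764 to 5103 (3 of 4 in both, medians 9.72 and 8.60, Hbb-b1 leading). Macrophage markers in B cells went from 1097 to 2866 through Emr1, which led at 12 h with 10.88, while the median went from 6.55 to 6.40 and the number well above background from 5 to 4, with Itgam, Mrc1 and Msr1 in neither channel. Dendritic cell markers in B cells went from 22523 (3 of 4) to 11618 (2 of 4), with Ccr7 leading, medians of 6.42 and 6.26, Cd209a in neither channel of either and Itgax in neither at 12 h. The 12 h sums in B cells would, with the labels exchanged, be 1698 for T cell, 11530 for erythroid, 1098 for macrophage and 23155 for dendritic cell markers. In EPM the dendritic cell sum went from 9359 to 13125 with Itgax (3 of 4 in both, Cd209a in neither channel), while the median went from 6.92 to 6.63. The mesothelial and fibroblast sum went from 22371 to 36164 with Col1a1 (4 of 4 in both), while the median went from 10.62 to 10.48. In BMDM neutrophil markers went from 14614 to 10721 (6 of 6 in both, medians 9.18 and 8.89, S100a9 leading). Their part in these differences was not tested.

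KLA for 1 h changed 4 of the 8 genes in EPM, 3 up and 1 down, and 3 in BMDM, 2 up and 1 down. In EPM 29.1% of all genes tested were called, 9.39% higher and 19.7% lower. In BMDM 28.6% of all genes were called, 11% higher and 17.6% lower. Jmjd3 and Bcl6 rose and Hdac3 fell in both, and Tbl1xr1 rose in EPM. The median change of the 8 genes was -0.07 in EPM and 0.05 in BMDM, beside -0.05 and -0.03 over all genes. On array means 0 of 8 genes passed at 1 h in either macrophage, where 0.94% of all genes passed in EPM and 0.577% in BMDM. The inflammatory genes Tnf, Il1b, Cxcl2 and Nfkbia, read as controls of the response, rose in both macrophages by between 3.04 and 7.71.

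KLA for 12 h changed 5 of the 8 genes in EPM, 2 up and 3 down, and 5 in BMDM, 3 up and 2 down. In EPM 53.9% of all genes were called, 19.6% higher and 34.3% lower. In BMDM 65% were called, 28.6% higher and 36.3% lower. The shares of the 8 genes called at 12 h were thus near those of all genes. The median change was -0.17 in EPM and 0.09 in BMDM, beside -0.06 and -0.03 over all genes. On array means 1 gene passed in EPM, Rcor1 (adjusted p = 0.0332), and 0 in BMDM, where 11.5% and 21% of all genes passed.

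Markers of other cells moved with KLA as well. In EPM at 12 h, the sum of dendritic cell markers went from 13125 with DMSO to 4768 with KLA (3 of 4 well above background in both, Cd209a in neither channel) with Itgax, which led (13.65 to 12.03), while the median went up from 6.63 to 7.66. Mesothelial and fibroblast markers went from 36164 to 25045 (4 of 4, medians 10.48 and 9.92, Col1a1 leading). In BMDM, neutrophil markers went from 14614 to 22801 at 1 h and from 10721 to 21156 at 12 h (6 of 6, S100a9 leading), with a higher median with KLA at both times. In EPM at 1 h they went from 1107 to 1947 (4 of 6, led by S100a8 without and S100a9 with KLA, with Ngp and Camp in neither channel), while the median went from 7.10 to 6.98. Other cells in the samples and a change of these markers in the macrophages themselves cannot be told apart here. The part of either in the changes of the 8 genes was not tested.

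**Figure D2:**
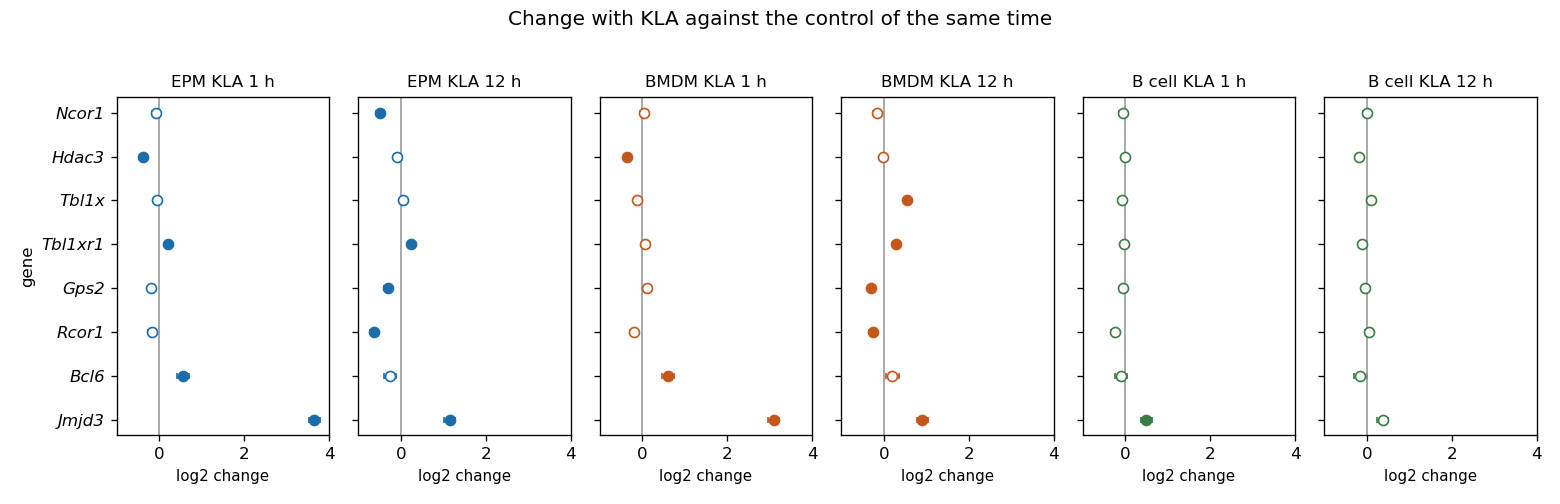
Log2 change with KLA (x axis) for the 8 genes (y axis), 1 panel per cell type and time. At 12 h the control had DMSO for 12 h. At 1 h it had DMSO for 1 h in BMDM and was untreated in EPM and B cells. Points are estimates from 2 channels per group and bars are standard errors, and filled points passed an adjusted p of 0.05. Jmjd3 at 1 h stands apart, 12.6-fold in EPM and 8.55-fold in BMDM.

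Jmjd3, the H3K27 demethylase, had the largest response among the 8 genes. It went from 8.63 and 8.44 in untreated EPM to 12.35 and 12.03 with KLA for 1 h, and from 9.13 and 8.95 to 12.24 and 12.03 in BMDM. The channels with KLA lay above those of the controls in both. The rise was 12.6-fold in EPM (log2 change 3.66, SE 0.13, adjusted p = 1.5e-13) and 8.55-fold in BMDM (SE 0.13, adjusted p = 1.76e-12). At 12 h the level was 9.39 and 9.16 with KLA against 8.31 and 7.94 with DMSO in EPM, and 9.27 and 9.20 against 8.34 and 8.31 in BMDM. The rise was then 2.23-fold in EPM (adjusted p = 4.84e-07) and 1.88-fold in BMDM (adjusted p = 6.69e-06). Tested on array means, the 1 h changes were 3.86 (adjusted p = 0.126) and 3.45 (adjusted p = 0.179), and those at 12 h 0.95 (adjusted p = 0.515) and 0.55 (adjusted p = 0.666). The 12 h change in BMDM was 0.56 with loess within arrays only (adjusted p = 0.001).

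With KLA for 1 h, Jmjd3 reached levels in both macrophages that overlapped those of B cells with KLA for 1 h as labelled. Those B cells would read 9.76 and 9.86 with the labels exchanged, below both macrophages. In the order of the 12 conditions, EPM, BMDM and B cells with KLA for 1 h ranked highest, with overlap between neighbours, and untreated B cells ranked next with none. The responses of EPM and BMDM differed by 0.56 at 1 h (SE 0.19, adjusted p = 0.0693). It passed with the dye as a replicate block (adjusted p = 0.00155), without the Cy3 channel of EPM with KLA for 1 h (0.72, adjusted p = 0.0284), with loess within arrays only (0.69, adjusted p = 0.0211) and in the authors' table (0.69, adjusted p = 0.0486).

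Bcl6, the DNA-binding repressor, rose at 1 h. It went from 12.05 and 11.89 to 12.60 and 12.47 in EPM, and from 13.25 and 12.94 to 13.84 and 13.57 in BMDM. The channels with KLA lay above those of the control in both. The rise was 1.48-fold in EPM (log2 change 0.57, SE 0.15, adjusted p = 0.0065) and 1.52-fold in BMDM (0.61, SE 0.15, adjusted p = 0.00411). The EPM call ended without the Cy5 channel with KLA (0.50, adjusted p = 0.0673) or the untreated Cy3 channel (0.49, adjusted p = 0.0656). The BMDM call ended without the Cy5 channel with KLA (0.47, adjusted p = 0.0665) or the control Cy3 channel (0.45, adjusted p = 0.0707). The changes in array means were 0.32 (adjusted p = 0.975) and 0.60 (adjusted p = 0.747).

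At 12 h Bcl6 passed in neither macrophage. The change was -0.26 in EPM (adjusted p = 0.149) and 0.20 in BMDM (adjusted p = 0.237), with channels that did not overlap in either. With the dye as a replicate block both passed, at adjusted p = 0.000833 and 0.00548. The EPM change was -0.02 with loess within arrays only (adjusted p = 0.93) and on array means (0.99), and -0.10 in the authors' table (0.618). The BMDM change also passed in the authors' table (0.56, adjusted p = 0.00235), with the processed signal (0.30, adjusted p = 0.0426) and with loess within arrays only (0.34, adjusted p = 0.0482).

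Hdac3 fell at 1 h in both macrophages. It went from 10.46 and 10.36 to 10.06 and 10.00 in EPM, and from 10.40 and 10.29 to 9.96 and 10.01 in BMDM. These were the 4 lowest of its 24 channels. The change was -0.38 in EPM (SE 0.06, adjusted p = 0.000107) and -0.36 in BMDM (SE 0.06, adjusted p = 0.00021), or -23.2% and -22.05% of the control level. At 12 h the changes were -0.09 in EPM (adjusted p = 0.253) and -0.02 in BMDM (adjusted p = 0.83). In array means the 1 h changes were -0.37 (adjusted p = 0.365) and -0.28 (adjusted p = 0.577), and with loess within arrays only the 12 h change in BMDM was -0.35 (adjusted p = 5.93e-05).

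Ncor1, the scaffold, fell in EPM at 12 h. It read 10.38 and 10.63 with KLA against 10.98 and 11.01 with DMSO, the lowest of its 12 conditions. The change was -0.48 (SE 0.09, adjusted p = 0.000246), and -0.52 on array means (adjusted p = 0.055). With the mean of the probes it was smaller, at -0.15 (adjusted p = 0.00152). In BMDM the 12 h change was -0.16 (adjusted p = 0.148), which passed with the dye as a replicate block (adjusted p = 0.0202), with the processed signal (-0.23, adjusted p = 0.0217) and with loess within arrays only (-0.34, adjusted p = 0.00409), and which was 0.02 with the mean of the probes (adjusted p = 0.676). The 1 h changes were -0.07 in EPM and 0.03 in BMDM. The 12 h responses of EPM and BMDM differed by -0.32 (SE 0.13, adjusted p = 0.0532). That difference passed with the dye as a replicate block (adjusted p = 0.00213), without the Cy5 channel of BMDM with KLA (-0.39, adjusted p = 0.0448) and without the Cy3 channel of EPM with KLA (-0.45, adjusted p = 0.013). It also passed in the authors' table (-0.38, adjusted p = 0.0388), with quantile scaling over channels (-0.33, adjusted p = 0.0426) and with the mean of the probes (-0.17, adjusted p = 0.01). The difference was -0.03 with loess within arrays only (adjusted p = 0.876) and -0.42 on array means (adjusted p = 0.326).

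The fall of Ncor1 in EPM at 12 h was called with 1 of the 5 probes that were well above background there. A_52_P561934 changed by -0.48, A_52_P561927 by -0.25 (adjusted p = 0.0599), A_52_P244895 by -0.19 (adjusted p = 0.205) and A_52_P487598 by -0.08 (adjusted p = 0.404). A_51_P457744, listed in the opposite orientation, changed by 0.04 (adjusted p = 0.748). A_52_P43661 and A_52_P357298 were well above background in neither channel of either condition and could not show a fall. In BMDM at 12 h, A_52_P487598 rose by 0.21 (adjusted p = 0.0197) and no other Ncor1 probe passed. That probe alone passed for the difference between the 12 h responses (-0.28, adjusted p = 0.0321). In B cells at 1 h, as labelled, it rose by 0.30 (adjusted p = 0.0201) and A_52_P43661 fell by 0.43 (adjusted p = 0.000457).

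**Figure D3:**
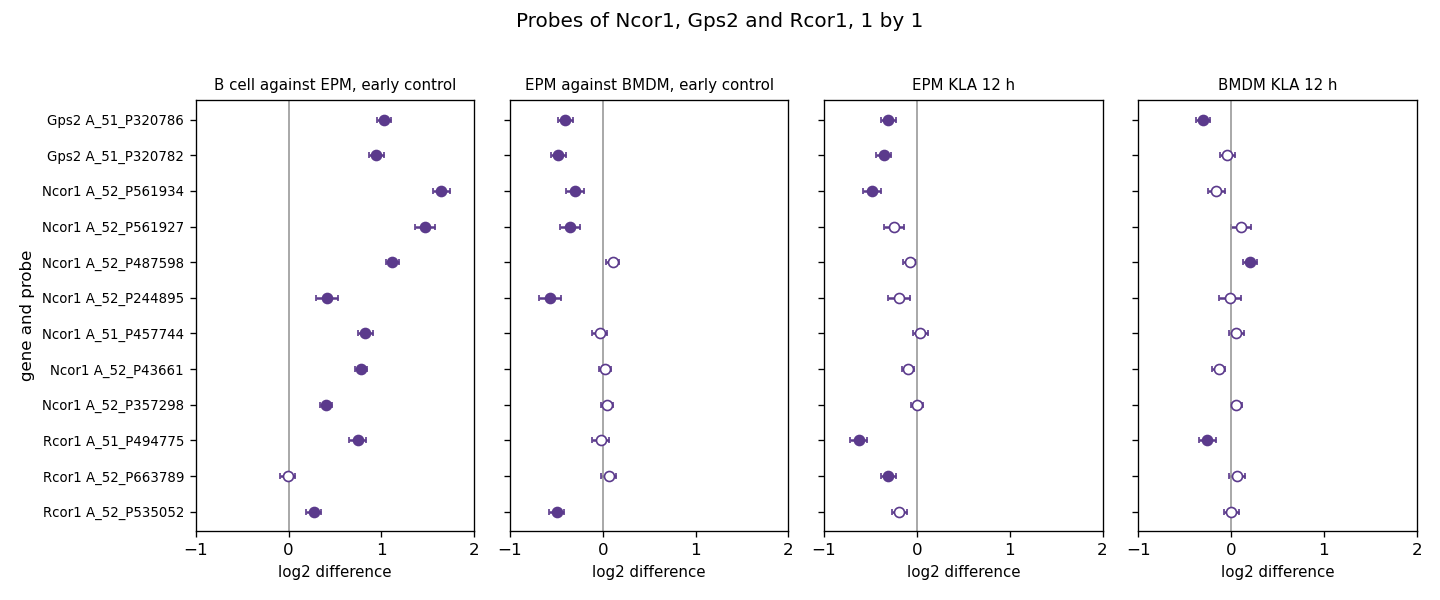
Log2 difference (x axis) of each probe of Gps2, Ncor1 and Rcor1 (y axis) in 4 comparisons. Points are estimates from 2 channels per group, bars are standard errors and filled points passed an adjusted p of 0.05 over all 30727 probes tested. All 7 Ncor1 probes lie above 0 for B cells against EPM, where A_52_P43661 and A_52_P357298 were at background in EPM, and 1 is filled for EPM with KLA for 12 h.

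Gps2, a core subunit, fell at 12 h in both macrophages. It went from 8.74 and 8.87 to 8.48 and 8.51 in EPM, and from 9.36 and 9.36 to 8.99 and 9.13 in BMDM. The channels did not overlap in either. The change was -0.31 in EPM (SE 0.08, adjusted p = 0.00306) and -0.30 in BMDM (SE 0.08, adjusted p = 0.00293). The BMDM change was -0.60 with loess within arrays only (adjusted p = 2.08e-06). Its call ended without the Cy5 channel with KLA (-0.23, adjusted p = 0.0512), and the second probe, A_51_P320782, changed by -0.04 there (adjusted p = 0.706) and by -0.36 in EPM (adjusted p = 0.00116). For that probe the responses differed by -0.32 (adjusted p = 0.0328), against -0.01 for the probe used (adjusted p = 0.963). Array means gave changes of -0.28 (adjusted p = 0.268) and -0.20 (adjusted p = 0.369). At 1 h the change was -0.19 in EPM (adjusted p = 0.0815), which passed with the dye as a replicate block (adjusted p = 0.016), without the Cy3 channel with KLA (-0.29, adjusted p = 0.0281) and with loess within arrays only (-0.25, adjusted p = 0.0212), and which was -0.09 without the Cy5 channel with KLA (adjusted p = 0.558).

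Tbl1x and Tbl1xr1 rose where they changed. Tbl1x went from 8.75 and 8.73 to 9.30 and 9.26 in BMDM at 12 h, its highest level in any of the 12 conditions. The rise was 1.45-fold (log2 change 0.54, SE 0.07, adjusted p = 1.92e-06), while the change in EPM at 12 h was 0.06 (adjusted p = 0.478). Those responses differed by -0.47 as EPM minus BMDM (SE 0.10, adjusted p = 0.000685), and by -0.12 with loess within arrays only (adjusted p = 0.354), a scaling that moved the median of all genes in this comparison by 0.19. At 1 h Tbl1x changed by -0.06 in EPM and -0.13 in BMDM and passed in neither, except in BMDM with loess within arrays only (-0.20, adjusted p = 0.037). The 12 h rise in BMDM was 0.47 on array means (adjusted p = 0.425) and 0.21 with loess within arrays only (adjusted p = 0.0129).

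Tbl1xr1 rose at both times in EPM and at 12 h in BMDM, with channels that did not overlap. In EPM it went from 8.54 and 8.45 to 8.68 and 8.71 at 1 h, and from 8.54 and 8.58 to 8.83 and 8.75 at 12 h. The changes were 0.20 (SE 0.06, adjusted p = 0.0171) and 0.23 (SE 0.06, adjusted p = 0.00325). In BMDM the 12 h change was 0.29 (adjusted p = 0.000386), and it turned to -0.04 with loess within arrays only (adjusted p = 0.627), which moved the median of all genes there by -0.11. The 1 h call in EPM ended without the Cy3 channel with KLA (0.19, adjusted p = 0.0907), the Cy5 channel with KLA (0.22, adjusted p = 0.0566) or the untreated Cy3 channel (0.16, adjusted p = 0.143), and with loess within arrays only (0.15, adjusted p = 0.0736). On array means the 3 changes were 0.17, 0.27 and 0.30 and none passed (adjusted p = 0.978, 0.467 and 0.319).

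Rcor1, the CoREST scaffold, fell at 12 h and more in EPM than in BMDM. It went from 11.58 and 11.63 to 10.90 and 11.06 in EPM, and from 11.49 and 11.62 to 11.25 and 11.36 in BMDM. EPM with KLA for 12 h had the lowest level of the 12 conditions. The change was -0.63 in EPM (SE 0.09, adjusted p = 1.11e-05) and -0.25 in BMDM (SE 0.09, adjusted p = 0.0216). The responses differed by -0.38 (SE 0.13, adjusted p = 0.0238), a call that ended with loess within arrays only (-0.03, adjusted p = 0.87) and without each of 4 channels: the Cy5 of BMDM with DMSO (-0.31, adjusted p = 0.0991), the Cy3 of BMDM with KLA (-0.32, adjusted p = 0.0885), the Cy3 of EPM with DMSO (-0.35, adjusted p = 0.0693) and the Cy5 of EPM with KLA (-0.30, adjusted p = 0.108). The BMDM call ended without the Cy3 channel with DMSO (-0.19, adjusted p = 0.167) or the Cy5 channel with KLA (-0.20, adjusted p = 0.144), with the mean of the 3 probes (-0.06, adjusted p = 0.321), in the authors' table (-0.17, adjusted p = 0.112) and on array means (-0.24, adjusted p = 0.192). With loess within arrays only the BMDM change was -0.43 (adjusted p = 0.000452).

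A further probe of Rcor1, A_52_P663789, fell in EPM at 12 h by -0.31 (adjusted p = 0.00477) and changed by 0.06 in BMDM (adjusted p = 0.544). Its responses differed by -0.37 (adjusted p = 0.0168). The remaining probe, A_52_P535052, changed by -0.19 in EPM (adjusted p = 0.066) and by 0.00 in BMDM. At 1 h Rcor1 changed by -0.16 in EPM (adjusted p = 0.21) and by -0.19 in BMDM (adjusted p = 0.133), and both passed with the dye as a replicate block (adjusted p = 0.00977 and 0.00295). The BMDM change also passed with the processed signal (-0.20, adjusted p = 0.0413) and with the mean of the probes (-0.15, adjusted p = 0.0422).

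Tested directly, the response to KLA differed between EPM and BMDM for 0 of 8 genes at 1 h, where 9.56% of all genes tested differed in the limma fit. At an unadjusted p under 0.05, 2 of 8 did, beside 21.3% of all genes. With the dye as a replicate block the count was 2, Gps2 (adjusted p = 0.0172) and Jmjd3, where 17.9% of all genes differed. For Gps2 the difference of -0.31 (adjusted p = 0.105) also passed without the Cy3 channel of EPM with KLA (-0.41, adjusted p = 0.0422). At 12 h 2 of 8 differed, Tbl1x and Rcor1, where 47.8% of all genes did. With the dye as a replicate block the 12 h count was 4, with Ncor1 and Bcl6 (-0.46, adjusted p = 9.1e-05) added, where 57.8% of all genes differed. For Bcl6 the difference missed the threshold in the fit of all cell types (adjusted p = 0.0749) and passed without the Cy3 channel of EPM with DMSO (-0.60, adjusted p = 0.0415), in the authors' table (-0.65, adjusted p = 0.0141), with the processed signal (-0.57, adjusted p = 0.0138) and with EPM and BMDM fitted without B cells (adjusted p = 0.0463). On array means the 12 h count was 0 (Tbl1x -0.39 and Rcor1 -0.34, adjusted p = 0.802 and 0.387), where 0.617% of all genes differed. With loess within arrays only it was 4, for other genes, all with a higher value in EPM: Hdac3 (0.39, adjusted p = 0.000911), Tbl1xr1 (0.32, adjusted p = 0.00405), Gps2 (0.33, adjusted p = 0.0185) and Jmjd3 (0.69, adjusted p = 0.00417). Under it 52.9% of all genes differed, 76.6% of these in that direction.

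In B cells as labelled, KLA changed 1 of the 8 genes at 1 h, where 5.17% of all genes tested were called, and 0 at 12 h, where 5.29% were called in the limma fit. At an unadjusted p under 0.05, 2 of 8 passed at each time, beside 19.2% and 16.8% of all genes. With the dye as a replicate block the count was 2 at 1 h and 2 at 12 h, where 13.9% and 11.2% of all genes were called. Tnf, Il1b, Cxcl2 and Nfkbia did not pass at 1 h, and of these Tnf passed at 12 h with a change of 0.43 (adjusted p = 0.00145). The responses of B cells and macrophages were not tested against each other.

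The gene called in B cells was Jmjd3, which went from 11.56 and 11.32 to 12.06 and 11.82 at 1 h. The channels did not overlap, and the rise was 1.41-fold (log2 change 0.50, SE 0.13, adjusted p = 0.0336). The call ended without the Cy5 channel with KLA (0.37, adjusted p = 0.308), the untreated Cy3 channel (0.38, adjusted p = 0.236) or the untreated Cy5 channel (0.62, adjusted p = 0.0549), with the processed signal of the scanner software (0.30, adjusted p = 0.151), with loess within arrays only (0.39, adjusted p = 0.0759) and on array means (1.31, adjusted p = 0.947). At 12 h Jmjd3 read 10.17 and 10.20 with KLA against 9.76 and 9.86, a change of 0.37 (adjusted p = 0.122, or 0.00417 with the dye as a replicate block and 0.0365 with the processed signal). On array means it turned to -0.44 (adjusted p = 1).

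The other 7 genes changed in B cells by between -0.25 and 0.11 over both times as labelled. The outermost was Rcor1 at 1 h, with -0.25 (adjusted p = 0.137, or 0.00147 with the dye as a replicate block), and 0.05 with the labels exchanged (adjusted p = 0.674). Hdac3 at 12 h changed by -0.18 (adjusted p = 0.104, or 0.0314 with the block).

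Under the exchanged labels the count was 4 of 8 at 1 h and 5 of 8 at 12 h, where 47.4% and 49.1% of all genes tested passed. At 1 h Jmjd3 then changed by -1.63 (adjusted p = 8.16e-09) and Tbl1x by -0.87 (adjusted p = 8.65e-09), while Bcl6 changed by 0.67 (adjusted p = 0.000906) and Tbl1xr1 by 0.39 (adjusted p = 3.77e-05). At 12 h Jmjd3 changed by -1.76, Tbl1x by -0.69, Bcl6 by 0.61, Tbl1xr1 by 0.29 and Rcor1 by 0.36. The direction for Jmjd3, Bcl6 and Tbl1xr1 at 1 h was thus opposite under the 2 readings of the labels.

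Over the 12 condition means the 8 genes did not move as 1 group. As a description, with each cell type on 1 slide, Pearson's r was 0.95 between Ncor1 and Gps2, 0.95 between Ncor1 and Rcor1, 0.86 between Hdac3 and Rcor1, and -0.53 between Tbl1x and Tbl1xr1. Jmjd3 reached at most 0.37 with any of the other 7. Of 17325 genes compared, those most like Jmjd3 were Rel (r of 0.98), Cd83 (0.96) and BC031781 (0.95), and 6 genes exceeded 0.9. Those most like Bcl6 were Gramd1a (0.96), Dppa5 (0.95) and Arhgdib (0.93), with 26 above 0.9, and those most like Tbl1x were Cog2 (0.96), Bzrap1 (0.95) and Phf20 (0.94), with 31. For Tbl1xr1 they were 6330416L07Rik (0.94), 9130023D20Rik (0.92) and 2610510H03Rik (0.91), with 8. The B cell-high genes had many like them. Ncor1 was nearest to Icam2, Eif4g3 and Sharpin (1934 genes above 0.9), Rcor1 to Sp3, Rab22a and Pcmtd2 (1575), Hdac3 to Mrpl43, Zfp553 and Rbak (830) and Gps2 to Rps24, pPtp4a3 and Ly6g6c (611).

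The other genes of these complexes and enzyme families were read from 10 lists with 118 genes, of which 117 were tested and Zbtb16 had no probe under its name. The lists also hold the 8 genes. In EPM at 1 h, 16 of 117 rose and 21 fell, with a median of -0.02, where 9.39% of all genes rose and 19.7% fell. The rises and falls were 1 and 1 of 7 in the NCoR complex, 0 and 1 of 9 among the enzymes that exchange or modify NCoR, 2 and 2 of 14 in the CoREST complex, 3 and 0 of 6 among BCL6 partners and its antagonist, 2 and 0 of 10 among H3K27 enzymes, 4 and 1 of 16 among other demethylases, 0 and 5 of 14 among H3K4 methyltransferases, 3 and 5 of 15 among acetyltransferases and acetyl readers, 1 and 3 of 9 among other deacetylases, and 0 and 3 of 17 in Sin3, NuRD and CtBP. In BMDM at 1 h, 13 rose and 21 fell, with a median of -0.06, where 11% of all genes rose and 17.6% fell. In the same order of lists these were 0 and 1, 1 and 0, 2 and 2, 3 and 0, 1 and 1, 2 and 3, 0 and 4, 1 and 3, 2 and 4, and 1 and 3.

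At 12 h, 29 of 117 rose and 46 fell in EPM (median -0.05), where 19.6% of all genes rose and 34.3% fell. In BMDM 47 rose and 45 fell (median 0.03), where 28.6% of all genes rose and 36.3% fell. In EPM the rises and falls in the same order were 2 and 3, 1 and 3, 5 and 6, 3 and 1, 6 and 1, 1 and 7, 1 and 9, 6 and 2, 2 and 7, and 2 and 7. In BMDM they were 3 and 2, 6 and 3, 6 and 7, 4 and 0, 5 and 3, 7 and 3, 3 and 6, 9 and 2, 0 and 8, and 4 and 11. The balance over all lists depended on the scaling: with loess within arrays only 38 rose and 34 fell in EPM, and 31 rose and 63 fell in BMDM. Under that scaling 52.8% of all genes were called in EPM, 46.4% of these upward, and 66.3% in BMDM, 29.8% of these upward. In B cells as labelled, 5 of 117 rose and 8 fell at 1 h, and 2 rose and 0 fell at 12 h, where 5.17% and 5.29% of all genes were called. With the labels exchanged 33 rose and 30 fell at 1 h, and 33 rose and 34 fell at 12 h, where 47.4% and 49.1% of all genes were called.

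By the rule for named genes, the strongest changes in these lists at 1 h included Jmjd3 itself in both macrophages. Prdm1, the plasma cell repressor that opposes BCL6, rose 4.85-fold in EPM (adjusted p = 1.59e-11) and 4.41-fold in BMDM (adjusted p = 3.76e-11). Brd2, an acetyl-lysine reader, rose 1.69-fold in EPM, and Rcor2, a paralog of Rcor1, rose 2.38-fold in BMDM. The falls, as log2 changes, were Setd1b (-0.90), Brd3 (-0.57) and Jmjd1a (-0.48) in EPM, and Brd3 (-0.585), Setd1b (-0.58) and Hat1 (-0.46) in BMDM. The Brd3 calls ended without the Cy5 channel with KLA (-0.43 in EPM and -0.42 in BMDM, adjusted p = 0.108 and 0.099) or the Cy3 channel of the control (-0.48 and -0.50, adjusted p = 0.0747 and 0.0595). On array means every 1 h change named here lost its call except Prdm1 in EPM, and Prdm1 in BMDM then had an adjusted p of 0.0587. At 12 h the rises in EPM were Bcorl1 (5.72-fold), Coro2a (log2 change 1.79), a subunit of NCoR complexes, and Hat1 (1.40). In BMDM they were Bcorl1 (8.57-fold), Sap30 (log2 change 1.62) and Pcaf (1.55). Bcorl1 was measured with a wide spread, with an SE of 0.39 in both, against 0.145 for Sap30. The SD of its 2 channels with KLA for 12 h was 0.58 in EPM and 0.71 in BMDM. The 12 h falls, as log2 changes, included Hdac5 (-1.47) and Chd3 (-1.05) in EPM, and Setd7 (-2.10), Fbxl10 (-1.86) and Phf19 (-1.60) in BMDM. Of these 12 h changes, Chd3 lost its call on array means (-1.03, adjusted p = 0.128). Some of these genes were called in the other direction elsewhere, and those changes were not read under the alternatives. At 12 h Phf19 rose in EPM (0.35, adjusted p = 0.00275). In BMDM at 12 h Setd1b (0.785), Hat1 (0.815) and Jmjd1a (0.25) rose. Rcor2 fell at 12 h in BMDM (-0.87) and in EPM (-0.19, adjusted p = 0.0482).

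Most genes of the lists were also higher in B cells. At the early control 97 of the 117 list genes were higher in B cells than in EPM and 8 lower, with a median of 0.98, where 38.5% of all genes were higher and 38.6% lower. Against BMDM 90 were higher and 12 lower, with a median of 0.72, where 37.5% of all genes were higher and 39.1% lower. At 12 h as labelled the counts were 98 and 10 against EPM, and 87 and 14 against BMDM, where 38.6% and 37.3% of all genes were higher and 38.4% and 39% lower. With the labels exchanged they were 98 and 10, and 89 and 13. With loess within arrays only they were 90 and 12 and 72 and 27 at the early control, and 80 and 14 and 61 and 36 at 12 h. In the same order 79%, 81%, 77% and 77.9% of all genes were then called, and 39.3%, 33.6%, 40.2% and 34.6% of these were higher in B cells. Between EPM and BMDM, 19 were higher and 53 lower at the early control, where 28.5% of all genes were higher and 29.3% lower, and 16 and 56 at 12 h, where 27.2% were higher and 29.8% lower. The response differed between EPM and BMDM for 4 upward and 3 downward at 1 h, and for 30 and 32 at 12 h, where 9.56% and 47.8% of all genes were called.

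Because Bcl6 rose at 1 h in both macrophages, the 250 bases before the listed starts of the genes were read for motifs in the RefSeq promoter table (GRCm38.p6). It holds 8 windows for 6 of the 8 genes, 2 for Ncor1, 2 for Bcl6 and 1 each for Tbl1x, Tbl1xr1, Gps2 and Rcor1, and none for Hdac3 or Jmjd3. On both strands 12 motifs were searched, and the one shown was chosen after the matches had been seen, so that its presence here is a description only. Of these, 5 were forms of the NF-κB motif of 10 letters, which begin with GGG, end with CC and differ in which letters between are fixed. The shares of all 32851 windows with a match to them were 0.356%, 1.21%, 1.63%, 17.6% and, with no letter between fixed, 45.8%. The shares for the others were 0.21% for GGGAATTCC, 1.31% for TTCCTNGAA, 4.06% for TTCCNNGAA, 2.52% for TGACGTNA, 1.55% for TGACGTCA, 6.75% for TGANTCA and 6.02% for CACGTG. Several overlap: the NF-κB form with no letter between fixed covers the other 4, TTCCNNGAA covers TTCCTNGAA, and TGACGTNA covers TGACGTCA. Of the 8 windows of these genes, 5 held the loosest NF-κB form and 1 held the form found in 17.6% of windows. TTCCTNGAA, TTCCNNGAA and CACGTG were each held by 1, and the other 7 motifs by 0.

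The window with TTCCNNGAA, a spacing that STAT factors and BCL6 are known to bind, belongs to Bcl6 and holds it at 2 places. They begin 168 and 88 bases before the start. The window lies at chr16:23981284-23981533 on the minus strand and is shown 5′ to 3′ with both matches in capitals.
Bcl6: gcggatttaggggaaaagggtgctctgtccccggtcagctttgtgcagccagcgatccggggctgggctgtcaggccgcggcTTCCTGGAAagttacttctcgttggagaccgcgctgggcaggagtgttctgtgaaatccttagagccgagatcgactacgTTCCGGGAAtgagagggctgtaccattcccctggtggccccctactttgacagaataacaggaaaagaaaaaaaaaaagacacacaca
Of all windows, 0.125% held the motif at 2 or more places. The other Bcl6 window held none.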

How the data were processed

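The deposited scanner files give mean spot intensity and local background of 12 Agilent 2-colour arrays, read per the file headers with Feature Extraction 9.5.3.1 and probe positions on mm8, and an intensity table normalized by the authors with a method that is not stated (38516 probes, column medians 73.8 to 80.1). From the scanner values, normexp background correction (offset 50), loess within arrays and quantile scaling of mean intensity between arrays gave single-channel log2 values, with outlier spots left out. A gene took its brightest probe and was kept if in some condition both replicates read it well above background. One fit in limma 3.58.1 (R 4.3.3) with 12 coefficients and 12 residual degrees of freedom gave moderated tests, adjusted by Benjamini-Hochberg over all genes tested. A second fit covered 30727 probes.

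The difference between the dyes was shared across arrays (r from 0.27 to 0.63 over 66 pairs of arrays, across genes), so the dye was also fitted as a replicate block. Other alternatives were offset 16, processed signal, quantile scaling over channels, loess within arrays only, the authors' table, no filter, all channels above background, the mean of probes, the cell types compared alone, each channel left out, array means, exchanged B cell labels, centring on all genes and a threshold of 0.01.

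Named genes are the 8 genes with all probes, the 3 list genes with the largest rise and the 3 with the largest fall per macrophage comparison with KLA, the 3 genes most correlated with each of the 8, and 4 control genes. The genes and the lists were chosen with earlier results of these data known.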

Additional observations from a re-analysis of the deposited data

Results flagged for a closer look

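The response to KLA for 12 h differed between EPM and BMDM for 2 of the 8 genes, by the test of the difference itself, where 47.8% of all genes tested did, so that the count is not a result about these genes. For Tbl1x the response in EPM minus that in BMDM was -0.47 on the log2 scale (SE 0.10, adjusted p = 0.000685), with a rise in BMDM and no call in EPM. For Rcor1 it was -0.38 (SE 0.13, adjusted p = 0.0238), with a fall in both that was deeper in EPM. With array means as samples neither passed, nor with loess within arrays only (-0.115 and -0.03, adjusted p = 0.354 and 0.87). The Rcor1 call also ended without each of 4 single channels. Groups of 2 channels are too small for a test of single outlying samples.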

How the results depend on the processing

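Of 1928 alternatives of the 112 values for the 8 genes, 1636 kept their direction and their side of the threshold, 84 turned with no call in either fit, 69 lost the call, 51 gained one and 24 turned with a call. Of the centred values, which have no test, 60 stayed within the spread of replicates and 4 moved beyond it. The direction of the 24 changes named from the lists by the rule held in all of 384 alternatives, and in 16 of these the call was lost.

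On array means the counts of the 8 genes called went from 4 to 0 for EPM at 1 h, from 5 to 1 for EPM at 12 h, from 3 to 0 for BMDM at 1 h, from 5 to 0 for BMDM at 12 h, from 1 to 0 for B cells at 1 h, from 6 to 2 for EPM against BMDM at the early control and from 2 to 0 for the difference in response at 12 h. That alternative changes the unit from channel to array and pools the 2 controls of a cell type at once, with 3 residual degrees of freedom, and no row separates these choices. Its value of -0.044 for Tbl1x in B cells against BMDM averages the early and the 12 h difference.

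With loess within arrays only, the counts were 4 for B cells against BMDM at the early control, 5 for B cells against EPM and 5 against BMDM at 12 h, 0 for B cells at 1 h, and 1 and 4 for the difference in response at 1 h and 12 h. Tbl1xr1 in BMDM at 12 h turned to -0.036 and Tbl1x in B cells against BMDM at the early control to -0.004. The difference in response at 12 h turned to 0.392 for Hdac3, 0.324 for Tbl1xr1 and 0.334 for Gps2. This scaling moved the median of all genes by -0.115 for BMDM at 12 h, by -0.129 and -0.191 for B cells against EPM and BMDM at the early control, by -0.156 against BMDM at 12 h, and by 0.193 for the difference in response at 12 h.

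In the authors' table and with the B cell labels exchanged, the counts for B cells were 4 and 4 at 1 h and 5 and 5 at 12 h. At 1 h these gave 0.431 and 0.385 for Tbl1xr1, 0.645 and 0.667 for Bcl6, and -1.522 and -1.633 for Jmjd3. At 12 h they gave -0.659 and -0.692 for Tbl1x, 0.359 and 0.29 for Tbl1xr1, 0.613 and 0.612 for Bcl6, and -1.653 and -1.756 for Jmjd3. At the 12 h controls they gave -0.261 and -0.097 for Tbl1xr1 in B cells against EPM, and 0.303 and 0.392 for Tbl1x against BMDM. For Tbl1xr1 there, the value of the authors' table passed (adjusted p = 0.00281) and that with the labels exchanged did not (adjusted p = 0.158). The authors' table gave counts of 1 and 4 for the difference in response at 1 h and 12 h.

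With the dye as a replicate block the counts were 2 and 2 for B cells at 1 h and 12 h, and 2 and 4 for the difference in response. In the macrophages at 1 h, Gps2 and Rcor1 then also passed in EPM and Rcor1 in BMDM. At 12 h Bcl6 also passed in EPM, and Ncor1 and Bcl6 in BMDM. The processed signal gave 0 and 1 for B cells. At a threshold of 0.01 the counts were 0 for B cells at 1 h and 1 for the difference in response at 12 h. With each channel left out in turn, where the lone channel was assumed to vary like the other groups, the counts ran from 2 to 4 for EPM at 1 h, 3 to 5 for BMDM at 12 h, 0 to 1 for B cells at 1 h, 0 to 2 for the difference in response at 1 h and 1 to 3 at 12 h. The cause of these changes was not tested. Signal over local background had a median of 2.31 in EPM, 2.26 in BMDM and 2.06 in B cells, which limits what can be read from dim probes.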

Other observations

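The dyes read some of these genes differently. Bcl6 was higher in Cy5 than in Cy3 on 12 of 12 arrays, by 0.22 on average (0.10 to 0.35), and Jmjd3 on 10 of 12, by 0.16. Ncor1 and Rcor1 were higher in Cy3 on every one of the 12 arrays, with Cy5 minus Cy3 at -0.12 and -0.13 on average.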
